A study of Mus musculus with 3 samples.

Results

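A set of 10 endocytosis genes, of the 18194 genes read by the array, were followed in the glomeruli of nondiabetic mice. They are the dynamin genes Dnm1, Dnm2 and Dnm3, the clathrin chain genes Cltc, Clta and Cltb, the synaptojanin gene Synj1, the endophilin genes Sh3gl1 and Sh3gl2, and the intersectin gene Itsn1. A probe set was taken as a member when the platform annotation gave it 1 gene symbol and that symbol was among the 10, which gave 39 of 34958 such probe sets. The genes were chosen for their role in endocytosis in podocytes, not by their measured levels, though earlier results of these data were known.

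The samples were glomeruli from 3 male FVB/NJ mice aged 8 weeks, nondiabetic and on a standard diet, with 1 Affymetrix expression array for each mouse. FVB/NJ is an inbred strain, and it is the nondiabetic control of the OVE26 diabetic line in the study's design. OVE26 mice were not analysed here, so there was 1 group and no comparison between conditions could be made. Glomeruli of a mouse were pooled before RNA extraction, so each value is an average over podocytes, endothelium, mesangium and any attached tubule or blood cells. In such bulk samples, fewer cells of a type and less RNA per cell cannot be told apart.

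In clathrin-mediated endocytosis, a lattice of clathrin heavy and light chains bends a patch of plasma membrane into a pit around its cargo. Dynamin, a GTPase, assembles around the neck of the pit and cuts it off, endophilin binds and curves that neck, synaptojanin removes phosphates from membrane phosphoinositides so that the coat can be shed, and intersectin is a scaffold that brings these proteins together. Podocytes, the epithelial cells that hold the filtration barrier, depend on this route. Mice that lack dynamins in podocytes, or that lack synaptojanin 1 or the endophilins, lose foot process structure and leak protein into the urine. Dynamin 1, dynamin 3 and the endophilin encoded by Sh3gl2 are best known from synapses, whereas dynamin 2, clathrin and the endophilin encoded by Sh3gl1 are found in most tissues.

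The dynamin genes share a position that the choice of members did not use. By the RefSeq annotation (GRCm38.p6), each of the 3 holds microRNA sequences on its opposite strand, while 81 of 14452 genes on the array with a listed strand (0.56%) hold a mature microRNA on the opposite strand. The mature sequences are printed because they show that the same 2 microRNA arms lie inside Dnm2 and inside Dnm3, and that 1 of the 2 mature microRNAs inside Dnm1 has the letters of one of these arms, while the other, miR-3154, matches neither. Capitals mark the seed, bases 2 to 8, and the array values reported here do not measure these microRNAs. The other arm of Mir214 inside Dnm3, miR-214-5p, is not printed.
mmu-miR-199a-3p (Mir199a-1 inside Dnm2, chr9:21496498-21496519, minus strand, and Mir199a-2 inside Dnm3, chr1:162217883-162217904, plus strand): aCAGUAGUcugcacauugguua
mmu-miR-199b-3p (inside Dnm1, chr2:32318524-32318545, plus strand): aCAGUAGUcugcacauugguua
mmu-miR-3154 (inside Dnm1, chr2:32318317-32318338, plus strand): cAGAAGGGgagucgggagcgga
mmu-miR-199a-5p (Mir199a-1 inside Dnm2, chr9:21496537-21496559, minus strand, and Mir199a-2 inside Dnm3, chr1:162217844-162217866, plus strand): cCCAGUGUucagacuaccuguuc
mmu-miR-214-3p (inside Dnm3, chr1:162223438-162223459, plus strand): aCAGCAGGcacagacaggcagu

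Of the 10 genes, 8 were above background in all 3 mice, where 58.3% of all genes were. Background was an empirical floor on each array, set at the 95th percentile of the 80 probe sets that read olfactory or vomeronasal receptor genes, and it lay at 2.58, 2.91 and 2.86 on the log2 scale in mice 1, 2 and 3. A gene with several probe sets was represented by the one with the highest mean. Dnm1 and Sh3gl2 were not above the floor in all mice, and Dnm3 was above it by a small margin. Of the 39 probe sets, 23 were above the floor in all mice, 12 in no mouse and 4 in some mice, where 52.9% of all probe sets with 1 gene were above it in all mice. Probe sets differ in their affinity, so levels of different genes are not set against each other.

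**Figure D1:**
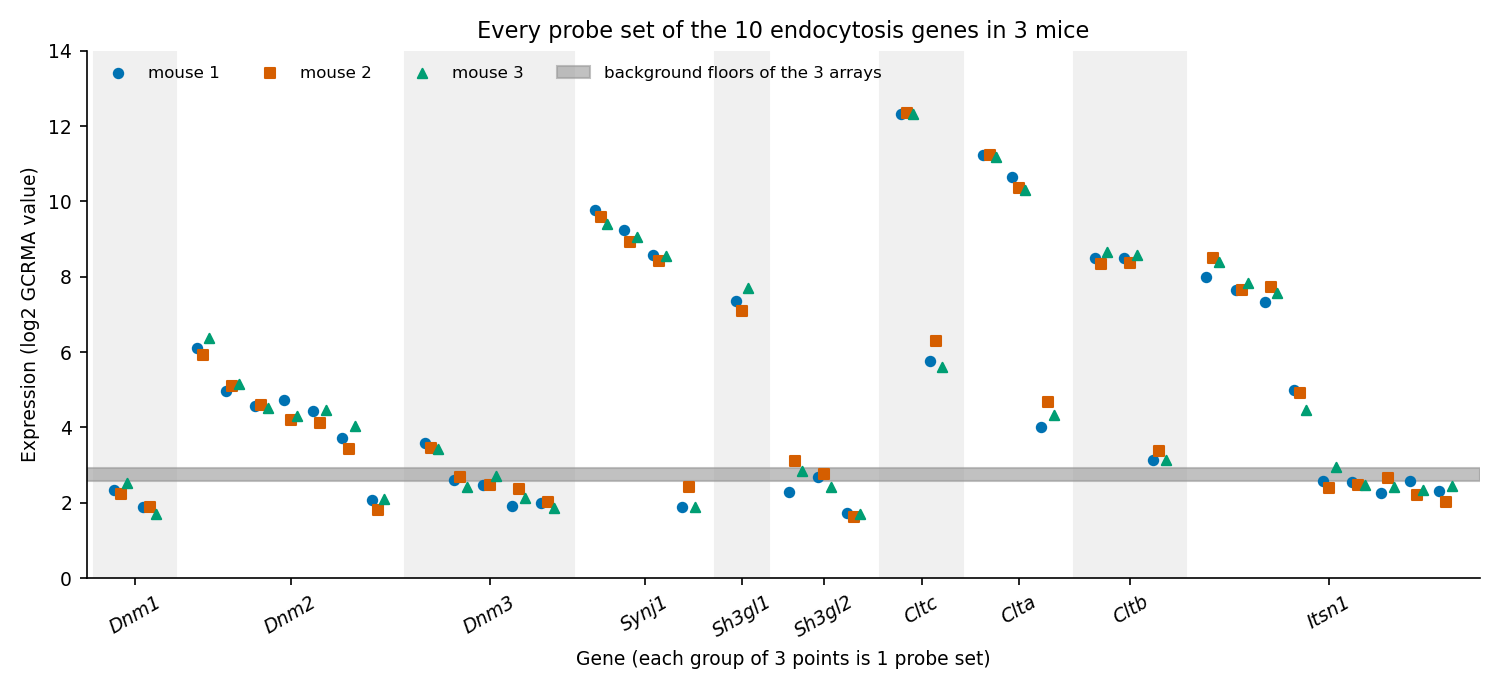
Log2 GCRMA expression value (y axis) of every probe set of the 10 endocytosis genes (x axis, grouped by gene), with 1 point for each of the 3 mice and a grey band from the lowest to the highest background floor. Both Dnm1 probe sets lie below the band, while all 8 probe sets of Cltc, Clta and Cltb lie above it.

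Dnm2 encodes the broadly expressed dynamin. Its brightest probe set was at 6.11, 5.92 and 6.37 in mice 1, 2 and 3, a mean of 6.13 ± 0.23 (SD, n = 3), and the highest and lowest mouse differed 1.37-fold. Of its 7 probe sets, 6 were above the floor in all mice, with SDs of 0.033 to 0.30. Mouse 3 was highest in 4 of these 6 and mouse 2 was lowest in 4 of these 6. Of the 6, 3 are of a type (_x_at) whose probes can match other transcripts, and they were at means of 4.56, 4.40 and 4.34.

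Dnm1 encodes the dynamin of synaptic vesicle recycling. In mice 1, 2 and 3, one probe set was at 2.33, 2.24 and 2.54, and the other at 1.89, 1.89 and 1.70. Every one of these values was below the floor of its array, so these probe sets give no measured level of Dnm1.

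Dnm3, the third dynamin gene, was read by 5 probe sets. One of them, at 3.58, 3.45 and 3.42 in mice 1, 2 and 3 (3.48 ± 0.083, SD, n = 3), was above the floor in all mice. The other 4 were not, with means of 1.96 to 2.57, and with a floor at the 99th percentile of the receptor probe sets (3.34, 3.89 and 3.41) the first was below it in mouse 2. The call for Dnm3 thus rested on 1 of 5 probe sets and on the percentile of the floor.

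Sh3gl1, which encodes the widely expressed endophilin, had a single probe set, at 7.36, 7.10 and 7.71 in mice 1, 2 and 3 (7.39 ± 0.30, SD, n = 3). It had the widest range of the 8 genes above background, 1.52-fold, with mouse 3 highest and mouse 2 lowest. No other probe set was there to check this order.

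Sh3gl2, which encodes the synaptic endophilin, had 3 probe sets, none of them above the floor in all mice. The first was at 2.30, 3.11 and 2.84 in mice 1, 2 and 3 and exceeded the floor in mouse 2 alone. The second was at 2.69, 2.76 and 2.42 and exceeded it in mouse 1 alone, and the third was at 1.72, 1.63 and 1.71. The 2 probe sets that crossed the floor did so in different mice.

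Synj1, which encodes the phosphoinositide phosphatase synaptojanin 1, was above the floor in 3 of 4 probe sets. The brightest was at 9.78, 9.59 and 9.40 in mice 1, 2 and 3 (9.59 ± 0.19, SD, n = 3), the second at 9.23, 8.93 and 9.07, and the third at 8.58, 8.42 and 8.54. All 3 were highest in mouse 1, while the lowest mouse was mouse 3 in 1 of them and mouse 2 in the other 2. The remaining probe set was below the floor in all mice (mean 2.06).

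The clathrin genes were above the floor with every probe set. Cltc, the heavy chain that forms the legs of the triskelion, was at 12.32, 12.35 and 12.32 in mice 1, 2 and 3 (12.33 ± 0.015, SD, n = 3), a 1.02-fold range. Only 1.39% of the genes tested had a smaller SD. Its other probe set was at 5.78, 6.29 and 5.61, with an SD of 0.36 and a 1.60-fold range. Both probe sets were highest in mouse 2 and lowest in mouse 3, so they gave the same order of the mice and very different spreads.

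The light chain genes encode the subunits that bind the heavy chain near the triskelion's hub. Clta was at 11.23, 11.23 and 11.17 in mice 1, 2 and 3 (11.21 ± 0.032, SD, n = 3) by its brightest probe set, of a type (_s_at) that can match several transcripts, and at 10.64, 10.34 and 10.30 by the second. Its remaining probe set was at 4.0, 4.68 and 4.33, with a 1.60-fold range. Cltb, the other light chain gene, was at 8.50, 8.35 and 8.65 (8.50 ± 0.15, SD, n = 3) by one probe set and at 8.50, 8.35 and 8.58 by a second that is annotated to the same transcript sequence. Both had mouse 3 highest and mouse 2 lowest, while the remaining probe set, near the floor at 3.14, 3.37 and 3.14, had mouse 2 highest.

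Itsn1, which encodes the scaffold intersectin 1, had 9 probe sets, of which 4 were above the floor in all mice. The brightest, of the type (_s_at) that can match several transcripts, was at 8.00, 8.49 and 8.39 in mice 1, 2 and 3 (8.29 ± 0.26, SD, n = 3). A second was at 7.65, 7.65 and 7.84, another, also _s_at, at 7.33, 7.72 and 7.56, and the dimmest of the 4 at 4.98, 4.91 and 4.45. In that order, mouse 1 was lowest, tied for lowest with mouse 2, lowest and highest, so the order of the mice was not the same over the probe sets. The other 5 had means of 2.25 to 2.64, 4 of them below the floor in all mice.

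Over the 8 genes above background, the median range over the mice was 1.27-fold, beside 1.23-fold over all genes tested. None had a 2-fold range, where 5.94% of the 10610 genes tested did, a share from which none of 8 genes is not far. Their ranges ran from 1.02-fold to 1.52-fold. Their median SD was 0.17, beside 0.157 over all genes tested (interquartile range 0.0904 to 0.260). Spread varies with level on these arrays, and 4 of the 8 had an SD above the trend that limma fitted at their level, where 47.2% of genes tested did. Itsn1 was at 1.67 times the trend, Sh3gl1 at 1.62 times, Synj1 at 1.47 times and Cltb at 1.03 times. Dnm2 was at 0.993 times, Dnm3 at 0.381 times, Clta at 0.294 times and Cltc at 0.157 times. Several of these SDs changed with the mice or the probe sets used. The mean over probe sets includes those below the floor in all mice, 1 of 4 for Synj1 and 4 of 9 for Itsn1. The SD of Itsn1 was 0.26 as reported, 0.066 without mouse 1 and 0.035 with the mean over all its probe sets, and that of Synj1 was 0.19 as reported and 0.077 with that mean. The SD of Cltc was 0.015 as reported and 0.19 with the mean over its probe sets.

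No excess variance between mice was called for any of the 8 genes. In limma's one-sided test of each gene's variance against the distribution fitted across all 10610 genes, the unadjusted p of the 8 ran from 0.202 (Itsn1) to 0.976 (Cltc), and the smallest Benjamini-Hochberg adjusted p was 0.972. The same test called 0 of 10610 genes at an adjusted p below 0.05 (0%), and 493 (4.65%) had an unadjusted p below 0.05, of which none was an endocytosis gene. On simulated data of 10610 genes, the adjusted p called 0 of 50 genes whose SD was raised 5-fold and 34 of 50 whose SD was raised 40-fold. At an unadjusted p below 0.05 in the same test, 82% and 96% of them passed, beside 3.6% of unchanged genes. With 3 arrays, the adjusted call thus missed a 5-fold excess of SD, and smaller excesses were not simulated. Since no endocytosis gene passed, no genes of like pattern were named.

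**Figure D2:**
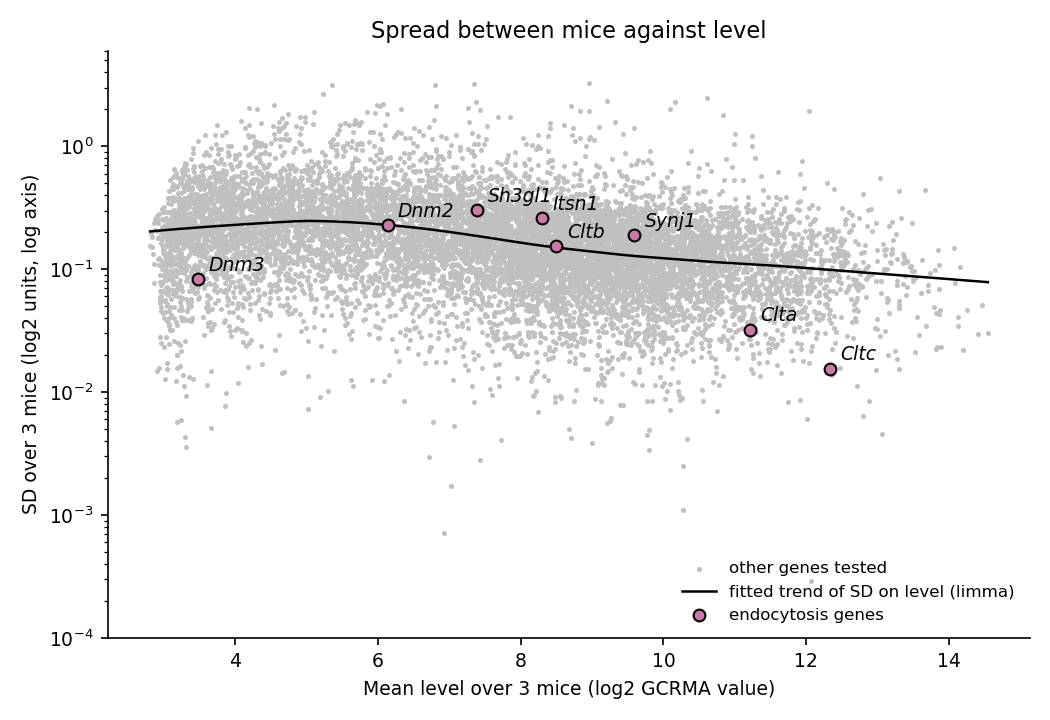
SD over the 3 mice (y axis, log2 units on a log axis) against the mean log2 GCRMA value (x axis) of each gene tested, with limma's trend as a line and 8 endocytosis genes labelled. Clta and Cltc lie below the trend at 0.294 and 0.157 times its value, and 16 genes with identical values on all arrays are not drawn.

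The small differences did not run one way across the genes. Dnm2, Sh3gl1 and Cltb were highest in mouse 3 and lowest in mouse 2, with differences of 0.36, 0.48 and 0.23 between mouse 3 and the average of the other mice. Synj1 and Dnm3 were highest in mouse 1 and lowest in mouse 3, Cltc and Clta were highest in mouse 2 and lowest in mouse 3, and Itsn1 was highest in mouse 2 and lowest in mouse 1. In all, 2, 3 and 3 of the 8 were highest in mice 1, 2 and 3, where 35.1%, 28.6% and 36.3% of all genes tested were. Likewise 1, 3 and 4 of the 8 were lowest in mice 1, 2 and 3, where 33.3%, 35% and 31.7% of all genes tested were. Where a gene had more than 1 probe set above the floor (6 genes), the same mouse was highest in all of them for 2 genes, Synj1 and Cltc. The same mouse was lowest in all of them for 1 gene, Cltc. The matching shares over all genes were not computed.

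Markers of tubule cells and leukocytes differed more between the mice than the endocytosis genes did. Podocyte markers were above the floor for all 7 genes with a probe set. All 7 were lowest in mouse 3, where 31.7% of all genes tested were, by a median of −0.11 against the average of the other mice. Proximal tubule markers (7 of 8 above the floor, none below it in all mice) differed by −1.86, −0.45 and 1.89 (log2 medians) in mice 1, 2 and 3. Their summed level ran from 9.81 to 10.996 (log2), with the most weight on Aqp1, the brightest of them. Unlike the medians, Aqp1 differed little, at 9.56, 9.81 and 9.80 in mice 1, 2 and 3. Markers of the loop of Henle and the segments beyond it (5 of 8, Scnn1b below the floor in all mice) differed by −1.17, 1.21 and 0.005. The summed level of all 8 was 12.75 to 13.96, with the most weight on Umod, the brightest of them. Of the 5, Calb1 went another way, at 3.80, 3.64 and 5.55 in mice 1, 2 and 3. Leukocyte markers (6 of 8, Cd68 and Cd3e below the floor in all mice) differed by 1.71, −0.15 and −1.76, with a summed level of 8.75 to 10.45. Unlike the other leukocyte markers above the floor, Csf1r and Cd74 did not fall in order from mouse 1 to mouse 3. Csf1r was at 8.01, 8.23 and 7.69 and Cd74 at 4.59, 3.88 and 4.43 in mice 1, 2 and 3. Endothelial markers were above the floor for 8 of 8. Of these, 7 were highest in mouse 1 (median 0.19), where 35.1% of all genes tested were. The 6 mesangial and pericyte markers with a probe set had medians of −0.007, −0.04 and 0.05 in mice 1, 2 and 3. Single markers went both ways (Gata3 at 11.63, 11.42 and 11.90, Des at 9.77, 9.25 and 9.54). The 3′ control probe set of actin exceeded its 5′ one, a measure that RNA quality affects, by 1.49, 1.81 and 2.05 (log2) in mice 1, 2 and 3, and that of Gapdh by 0.48, 1.08 and 0.92. The part of these markers and controls in the differences of Sh3gl1, Dnm2, Synj1 and Itsn1 was not tested.

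**Figure D3:**
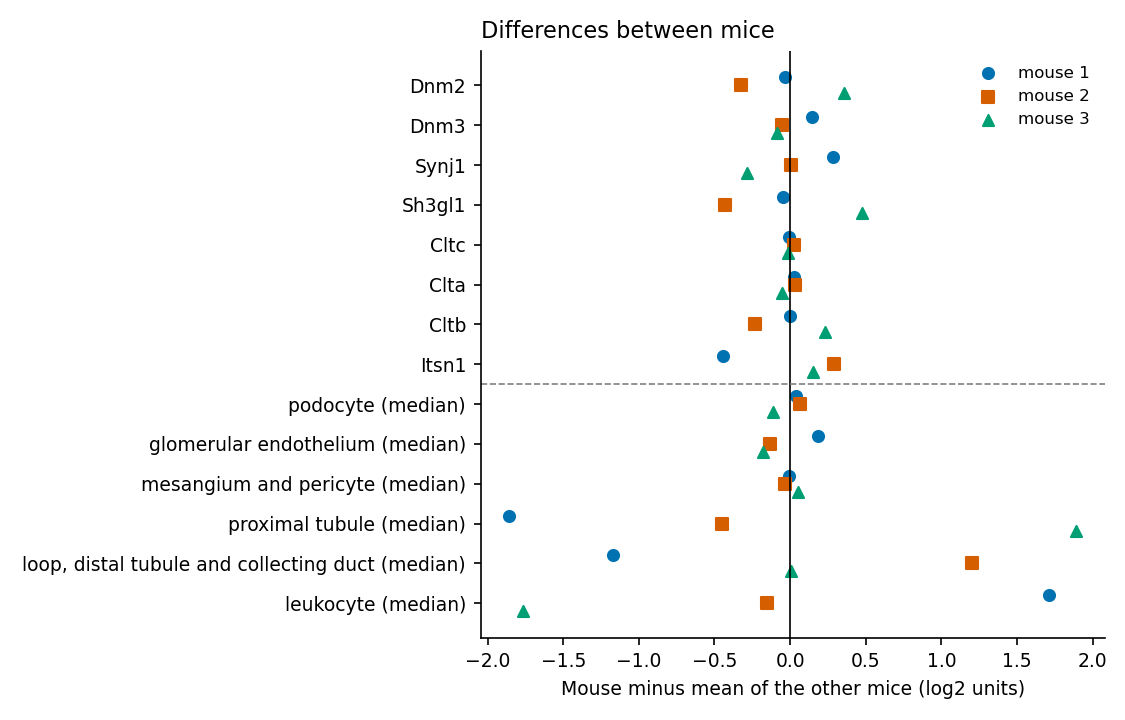
Value in each mouse minus the average of the other mice (x axis, log2 units) for 8 endocytosis genes (above the dashed line) and as the median of each cell type's markers (below it). The endocytosis genes stay between −0.44 and 0.48, while the tubule and leukocyte medians reach −1.86 and 1.89.

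Neuronal markers bear on the genes best known from synapses. Of 8 neuron and synapse markers, 6 were below the floor in all mice, among them the vesicle fusion genes Snap25 (2.23, 2.19 and 2.30 in mice 1, 2 and 3) and Syt1 (2.27, 2.09 and 2.08). The other 2, the vesicle protein gene Syp (mean 3.85) and the stathmin family gene Stmn2 (mean 9.10), were above it. The summed level of all 8 markers was 9.38, 9.07 and 9.17 in mice 1, 2 and 3. Most of this sum came from Stmn2, at 9.28, 8.97 and 9.05. Of the genes best known from synapses, Dnm1 was likewise under the floor in all mice, Sh3gl2 was under it in most values, and Dnm3 was above it in all mice by 1 of its 5 probe sets (3.58, 3.45 and 3.42).

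The promoters of the 3 dynamin genes and of both endophilin genes are shown, whose paralogues fell on opposite sides of the floor, since the array reads RNA from these genes. Each runs from 250 bases before to 50 bases after a RefSeq start (GRCm38.p6), 5′ to 3′ on the gene's strand, and all 10 genes matched the RefSeq table with 13 starts. Capitals mark GGGCGG on either strand, the GC box that Sp factors are known to bind. Sh3gl1 has another listed start nearby, whose window is not printed.
Dnm1, chr2:32353280-32353579, minus strand: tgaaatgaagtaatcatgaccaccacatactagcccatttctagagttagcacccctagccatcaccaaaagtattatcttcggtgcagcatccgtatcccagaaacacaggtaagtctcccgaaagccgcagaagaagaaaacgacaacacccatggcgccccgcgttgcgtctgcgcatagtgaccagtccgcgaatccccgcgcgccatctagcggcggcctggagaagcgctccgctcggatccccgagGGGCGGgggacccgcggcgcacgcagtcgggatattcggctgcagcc
Dnm2, chr9:21424658-21424957, plus strand: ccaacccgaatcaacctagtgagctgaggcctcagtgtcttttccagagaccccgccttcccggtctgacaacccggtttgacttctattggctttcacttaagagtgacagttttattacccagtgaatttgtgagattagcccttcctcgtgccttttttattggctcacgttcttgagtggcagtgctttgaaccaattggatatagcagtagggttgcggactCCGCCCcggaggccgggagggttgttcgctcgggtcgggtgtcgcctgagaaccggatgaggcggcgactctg
Dnm3, chr1:162477985-162478284, minus strand: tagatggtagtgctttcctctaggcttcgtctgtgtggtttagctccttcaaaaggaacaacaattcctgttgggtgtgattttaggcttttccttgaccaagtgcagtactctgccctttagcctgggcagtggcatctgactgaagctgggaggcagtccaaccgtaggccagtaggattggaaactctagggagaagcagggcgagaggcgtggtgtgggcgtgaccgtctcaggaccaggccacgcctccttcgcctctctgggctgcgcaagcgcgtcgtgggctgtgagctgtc
Sh3gl2, chr4:85205206-85205505, plus strand: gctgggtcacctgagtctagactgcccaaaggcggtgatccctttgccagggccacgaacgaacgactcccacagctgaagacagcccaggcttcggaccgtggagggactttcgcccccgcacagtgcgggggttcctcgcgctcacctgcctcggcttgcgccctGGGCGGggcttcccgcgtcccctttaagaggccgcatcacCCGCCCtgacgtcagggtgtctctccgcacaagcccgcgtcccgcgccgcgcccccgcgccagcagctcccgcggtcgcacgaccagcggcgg
Sh3gl1, chr17:56036588-56036887, minus strand: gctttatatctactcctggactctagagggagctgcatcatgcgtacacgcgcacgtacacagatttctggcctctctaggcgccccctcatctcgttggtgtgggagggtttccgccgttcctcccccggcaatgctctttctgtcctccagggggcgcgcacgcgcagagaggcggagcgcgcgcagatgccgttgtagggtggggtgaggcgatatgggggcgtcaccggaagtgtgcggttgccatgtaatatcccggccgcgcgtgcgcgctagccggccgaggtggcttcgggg

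The windows of Dnm1 and Sh3gl2, which were not above the floor in all mice, hold 28 and 34 CpG dinucleotides, and those of Dnm2, Dnm3 and Sh3gl1, which were, hold 17, 12 and 31, where the median over 32851 promoter windows is 7. GGGCGG occurs once in the window of Dnm1, 2 times in that of Sh3gl2, once in that of Dnm2 and not in those of Dnm3 and Sh3gl1. It occurs in 8 of the 13 windows and in 35.7% of all promoter windows. CCAAT, searched on both strands with overlapping matches counted, occurs 4 times in the window of Dnm2, once in that of Dnm3 and in none of the other windows printed, and in 37.4% of all promoter windows. TATAAA, also searched on both strands, occurs once in the window of Sh3gl1, not in the other windows printed, and in 13.6% of all promoter windows.

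The AP-2 complex links clathrin to the membrane and to cargo, and all 5 of its subunit genes were above the floor in all mice. In mice 1, 2 and 3 the medium subunit gene Ap2m1 was at 10.21, 10.33 and 10.22, and the beta subunit gene Ap2b1 at 9.84, 9.57 and 9.89. The small subunit gene Ap2s1 was at 9.41, 9.12 and 9.03. Of the alpha subunit genes, Ap2a2 was at 7.88, 8.28 and 8.17 and Ap2a1 at 3.55, 4.18 and 3.55. None of the 5 had a 2-fold range, where 5.94% of all genes tested did, and their median SD was 0.20.

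Early pit proteins and cargo adaptors were above the floor for 17 of 19 genes with a probe set, with a median SD of 0.11. The pit nucleator gene Fcho2 varied least (11.05 ± 0.032, SD, n = 3). Hip1r, which links pits to actin, lay at 7.46, 8.10 and 7.15 in mice 1, 2 and 3, and the stonin gene Ston2 at 9.17, 8.36 and 8.80. The synaptic adaptor gene Snap91 and Fcho1 were below the floor in all mice. None of the 17 had a 2-fold range or an unadjusted p below 0.05 in limma's variance test. Of all genes tested, 5.94% and 4.65% did.

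Genes of membrane curvature were above the floor for 12 of 14, with a median SD of 0.12. The endophilin B gene Sh3glb1 varied little (11.35 ± 0.014, SD, n = 3), as 11.36, 11.34 and 11.36 in mice 1, 2 and 3 show, while Sh3gl3, the remaining endophilin A gene, and the neuronal Pacsin1 were below the floor in all mice. The amphiphysin family gene Bin1 was at 4.37, 4.92 and 4.92, and Fnbp1 at 8.14, 8.35 and 7.90. Of the 3 endophilin A genes, Sh3gl1 alone was above the floor in all mice.

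For uncoating and phosphoinositides, 7 of 8 genes were above the floor. Hspa8, the chaperone that strips clathrin from vesicles, was at 13.15, 13.89 and 13.95 in mice 1, 2 and 3 (13.66 ± 0.44, SD, n = 3), with mouse 1 apart from the others. Its unadjusted p of 0.011 in limma's variance test was the smallest of the 78 related genes tested, and its adjusted p was 0.770. The phosphatase gene Ocrl was at 6.75, 6.78 and 6.43, and Inppl1 at 8.94, 9.11 and 9.02. All 4 kinase genes of the list were above the floor, with Pip5k1a at 8.82, 8.93 and 8.82, Pip5k1b at 3.34, 3.68 and 3.79 and Pip5k1c at 8.86, 9.12 and 9.14.

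Partners of dynamin and actin regulators at pits were above the floor for all 13 genes with a probe set, with a median SD of 0.10. Wasl, which encodes an activator of actin branching, varied least (11.50 ± 0.022, SD, n = 3). Myo1e, a podocyte nephrosis gene that encodes a myosin, was at 9.86, 9.73 and 9.37 in mice 1, 2 and 3, and Was, the blood cell relative of Wasl, at 3.85, 3.15 and 3.36. Was was highest in mouse 1, as were 5 of 6 leukocyte markers and 35.1% of all genes tested. It was lowest in mouse 2, while 5 of the 6 leukocyte markers were lowest in mouse 3. The part of leukocytes in Was was not tested.

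**Figure D4:**
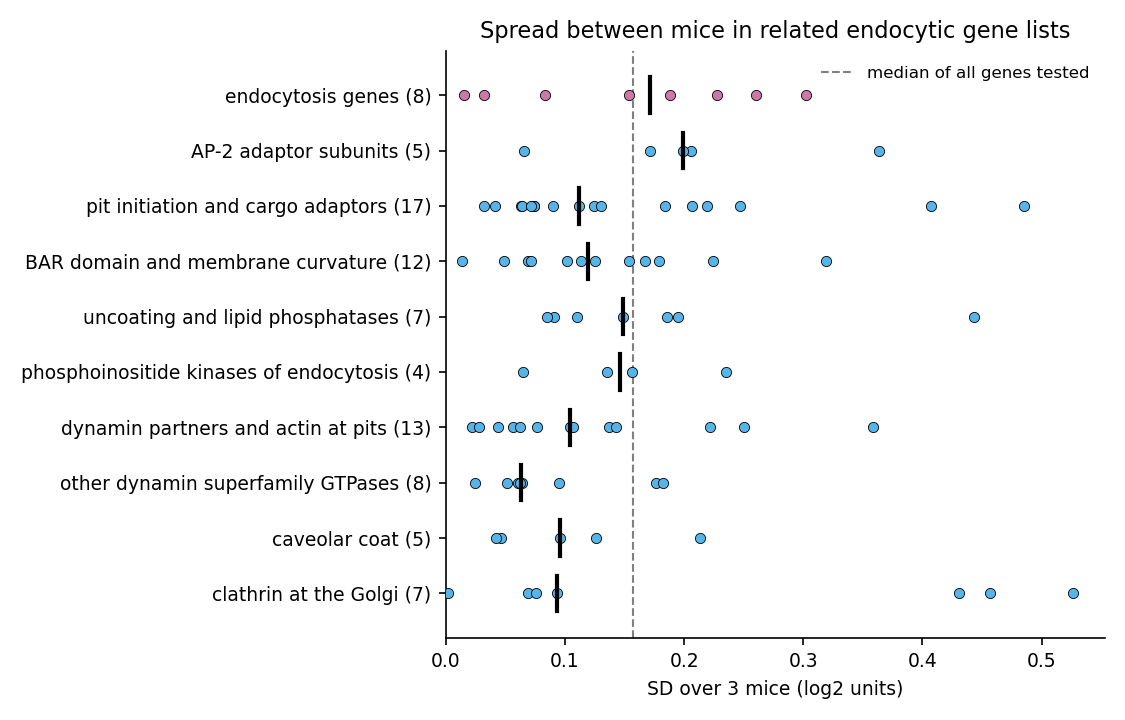
SD over the 3 mice (x axis, log2 units) of each gene above background in 8 endocytosis genes and 9 related lists (y axis, number of genes in brackets), with each list's median as a bar. The dashed line is the median of all genes tested, 0.157, and the endocytosis genes run from 0.015 to 0.30.

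Over all 9 related lists, 78 of the 84 genes that had a probe set lay above the floor in all mice (92.9%, where 58.3% of all genes were). Of these 78, 1 had a 2-fold range, 1 had an unadjusted p below 0.05 and none had an adjusted p below 0.05 in limma's variance test. Of all genes tested, 5.94%, 4.65% and 0% did. Their median SD was 0.11, beside 0.17 for the 8 endocytosis genes and 0.157 for all genes tested.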

How the data were processed

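The authors deposited 1 value per probe set and array, summarised with GCRMA per the submitters' processing notes. The version, and which arrays were normalised together, are not given in the sources used here. The deposited values were read as log2 from their range (0.67 to 14.76), since the labels state no scale. GCRMA places many dim probe sets near a common low value, and 2.18% to 2.49% of probe sets were identical on a pair of arrays, which lowers their SD. All columns of per-sample values were used. No further normalisation was applied.

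Replicate numbers came from the sample titles. The labels describe separate mice, and 3 arrays limit the precision of every value. Of 45101 probe sets, 34958 had 1 gene symbol in the platform annotation, 932 had several and were not used, and 64 were controls. All 10 genes matched the RefSeq gene table by gene identifier. Genes above the floor on all 3 arrays were tested with limma 3.58.1 in R 4.3.3 (variance on 2 degrees of freedom against a robust scaled F fit with a trend on level), one-sided, with Benjamini-Hochberg adjustment over all genes tested. The script was tested on simulated data with 200 changed genes. Named genes were all 10 endocytosis genes, the AP-2 genes, and each related list's 2 with the largest and 1 with the smallest SD. The first 2 markers of each cell type were also to be named. Of these, only the neuronal ones are given with single values, and the others as lists. Aqp1, Calb1, Csf1r, Cd74, Gata3, Des, Gga1, Cd68, Cd3e, Scnn1b, Syp, Stmn2, Snap91, Fcho1, Sh3gl3 and Pacsin1 were named after their values were seen. The genes and lists were chosen with earlier results of these data known. Alternatives were another floor, the mean over probe sets, quantile normalisation, centring, other filters, other fits and each mouse left out.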

Additional observations from a re-analysis of the deposited data

How the results depend on the processing

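The number of endocytosis genes above background was 8 as reported and with quantile normalisation, centring or any 1 mouse left out (8 to 8). It was 7 with the 99th percentile floor and 7 with the mean over all probe sets of a gene, both times through the loss of Dnm3. The number with a 2-fold range was 0 under each alternative tried, 0 to 0 with a mouse left out, and so was the number with excess variance by limma at an adjusted p below 0.05. The count of excess variance was also 0 with a plain fit without trend (399 genes of 10610 at an unadjusted p below 0.05, none an endocytosis gene) and with every probe set as a feature (785 of 18479, none of the 23 endocytosis probe sets). Genes with a 2-fold range over all genes numbered 630 as reported, 612 after quantile normalisation and 319 to 371 with a mouse left out, which leaves a range over fewer arrays. SDs of single genes depended on the setting more than the counts did. The mean over probe sets includes those below the floor. Of 60 recomputed SDs, 17 fell and 3 grew by more than 1.5-fold. The mean over probe sets accounts for 7 of the falls and 2 of the increases, with 0.19 for Cltc (0.015 as reported), 0.081 for Clta (0.032), 0.035 for Itsn1 (0.26), 0.077 for Synj1 (0.19), 0.052 for Cltb (0.15), 0.13 for Sh3gl2 (0.41), 0.029 for Dnm1 (0.15), 0.14 for Dnm2 (0.23) and 0.049 for Dnm3 (0.083). Leaving out mouse 3 lowered 5 SDs by that much, to 0.0015 for Clta, 0.061 for Dnm1, 0.13 for Dnm2, 0.18 for Sh3gl1 and 0.046 for Sh3gl2. An SD without a mouse rests on 2 arrays, and it falls whenever the mouse left out is the outlying one. Without mouse 1 the SD was 0.015 for Dnm3, 0.066 for Itsn1 and 0.19 for Sh3gl2, and without mouse 2 it was 0.0038 for Cltc. Cltc also moved to 0.026 after quantile normalisation and 0.0038 after centring. No paired analysis was possible because the samples form 1 group. Signal over the floor limits what can be said of Dnm1, Dnm3 and Sh3gl2.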

Other observations

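Other coats and other dynamin relatives were also read on these arrays. All 8 genes of the wider dynamin superfamily were above the floor in each mouse, and their median SD was 0.063. Opa1, which encodes the GTPase of inner mitochondrial membrane fusion, was at 10.16, 10.19 and 10.21 in mice 1, 2 and 3, the fusion gene Mfn1 at 8.40, 8.72 and 8.69, and Ehd4 at 11.26, 11.16 and 10.91. All 5 caveolar coat genes were above the floor, with Cavin2 at 12.34, 12.41 and 12.41, Cavin1 at 10.78, 10.81 and 10.58 and Cavin3 at 8.30, 8.23 and 7.90.

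Clathrin adaptors of the Golgi were above the floor for 7 of 8 genes, with a median SD of 0.094. The GGA adaptor genes spread most, with Gga3 at 6.75, 7.78 and 7.05 in mice 1, 2 and 3, a 2.03-fold range, Gga2 at 6.74, 7.48 and 7.57 and Gga1 at 5.32, 5.66 and 6.17. Gga3 was the single gene of the 78 related genes with a 2-fold range, and its unadjusted p in limma's variance test was 0.066 (adjusted p 0.972). Ap1b1 was nearly identical in the mice, at 7.02, 7.01 and 7.02. All 3 GGA genes were lowest in mouse 1, as were 33.3% of all genes tested. So were 4 of 5 markers of the loop of Henle and beyond and 7 of 7 of the proximal tubule. Gga3 was highest in mouse 2, and Gga1 and Gga2 were highest in mouse 3. The part of tubule RNA in the GGA genes was not tested.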
